A study of Homo sapiens with 6 samples.

Results

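The interferon response genes examined here were 40 human genes that cells switch on after exposure to type I interferon, or that sense foreign RNA and start the interferon pathway. A gene entered if the platform annotation gave its symbol to a probe, and where several probes carried the symbol the one with the highest mean signal over the arrays was used. Of the 40 genes, 36 had a named probe, out of 16225 named genes on the array. A probe counted as measured when its detection p-value, which compares the probe with the negative control beads of its own array, was under 0.05 on at least 3 of the 6 arrays. This held for 27 of the interferon response genes, out of 8909 named genes. The other 9 genes with a probe (EIF2AK2, OAS3, IFNB1, CXCL10, IFIT5, TRIM22, IFI27, IFI44L and XAF1) were not well above background. STAT2, IRF7, HERC6 and SAMD9L had no probe named for them in the annotation used.

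A2058 is a human melanoma cell line that expresses CT16, a cancer-testis antigen encoded by PAGE5. In one group the cells were transfected with CT16 siRNA (the sequence called siRNA1 in the methods), and in the other with a non-targeting control siRNA. Each group had 3 separate cultures, and RNA was taken after 48 h and hybridized on Illumina Sentrix Human-6 BeadChips, 1 array per culture. Both groups thus received a lipid reagent and a short double-stranded RNA, and untransfected or mock-transfected cells were not analysed here. A response to delivery that was common to both siRNAs therefore cannot be told apart from no response. The comparison shows only whether these genes differed between CT16 siRNA and control siRNA. With 1 CT16 siRNA sequence on the arrays, effects of its delivery, its sequence and the loss of CT16 cannot be told apart.

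PAGE5 itself was not detected on any array (detection p-values from 0.178 to 0.815), so on these arrays the silencing gives no check of the labels. The paper reports separately that CT16 mRNA is present in A2058 cells and was lowered by this siRNA. A probe at background thus does not show that its gene is off. Between 11311 and 13110 of 47289 probes were detected per array, and the median signal ranged from 164.4 to 190.6, the highest being that of control siRNA replicate 1. CT16 siRNA replicate 1 stood apart on the first principal component (71.8% of the variance), where its score was 37.53 and those of the other arrays lay between -21.13 and 9.03. Of 8 melanocyte markers, PMEL, TYR, MITF, SOX10, S100B and TYRP1 were above background, MLANA was not and DCT had no named probe. Of 6 leukocyte markers, 5 had a named probe and 0 were above background. Of 4 epithelial markers KRT8 and KRT19 were above background, and of 3 endothelial markers PECAM1 was, on the 3 CT16 siRNA arrays alone. With 3 arrays against 3, an exact permutation test cannot give a p below 0.1.

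Type I interferons are secreted proteins that bind a shared receptor on the cell surface. The receptor kinases activate transcription factors, among them STAT2, which enters the nucleus together with IRF9 and binds a promoter element called the interferon-stimulated response element (ISRE). Double-stranded RNA, including some siRNAs, can start this pathway through the endosomal receptor TLR3 and the cytosolic sensors RIG-I (DDX58) and MDA5 (IFIH1), and the induced genes then block viral entry, translation and replication.

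Promoters of 4 members are shown because they carry the ISRE core and the genes differ in the sign of their difference between the siRNAs. They are the 250 bases before an annotated transcript start, written 5′ to 3′ on the gene's strand, from RefSeq on GRCh38.p14, and capitals mark GAAANNGAAA on either strand.
IFIT1, chr10:89392373-89392622, plus strand: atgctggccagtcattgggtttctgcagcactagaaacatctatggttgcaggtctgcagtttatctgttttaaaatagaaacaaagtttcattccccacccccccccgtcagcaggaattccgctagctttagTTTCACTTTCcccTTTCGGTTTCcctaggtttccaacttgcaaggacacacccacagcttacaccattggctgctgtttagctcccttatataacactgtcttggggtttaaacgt
IFIT3, upstream start, chr10:89327747-89327996, plus strand: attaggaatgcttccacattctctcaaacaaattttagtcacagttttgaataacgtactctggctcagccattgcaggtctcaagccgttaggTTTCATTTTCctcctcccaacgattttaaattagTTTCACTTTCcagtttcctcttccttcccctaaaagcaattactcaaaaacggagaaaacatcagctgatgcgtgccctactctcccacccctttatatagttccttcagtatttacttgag
ISG15, chr1:1013247-1013496, plus strand: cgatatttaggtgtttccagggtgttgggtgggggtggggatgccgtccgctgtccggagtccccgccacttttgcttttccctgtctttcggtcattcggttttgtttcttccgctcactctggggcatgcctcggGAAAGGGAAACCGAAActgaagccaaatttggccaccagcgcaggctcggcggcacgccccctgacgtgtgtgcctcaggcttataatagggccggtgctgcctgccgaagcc
ISG20, chr15:88638766-88639015, plus strand: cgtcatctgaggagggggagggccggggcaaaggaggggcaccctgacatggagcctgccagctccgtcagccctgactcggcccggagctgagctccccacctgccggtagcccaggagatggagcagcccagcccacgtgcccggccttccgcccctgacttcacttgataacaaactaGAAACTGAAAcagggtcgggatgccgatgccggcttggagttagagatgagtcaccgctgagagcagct
IFIT1 and IFIT3 each held 2 matches on the opposite strand, beginning 116 and 103 bases before the start in IFIT1 and 156 and 122 bases before it in IFIT3. ISG15 held 2 overlapping matches, 113 and 107 bases before its start, and ISG20 held 1, 69 bases before. The ISG20 window lies inside the annotated gene, before an internal transcript start.

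Over windows of 300 bases (250 before and 50 after each start), 23 of the 33 members in the RefSeq table had a match at 1 or more starts (69.7%), against 4.38% of 27305 genes and 3.57% of 35116 windows. OAS2, OASL, IRF7, USP18, IFIT2, MX2 and TRIM22 were not matched to the table. The 17 measured members with a match had a median log2 difference between the siRNAs of 0.0012, 9 of them above 0. For the 5 measured members in the table without a match (DDX58, OAS1, IRF1, IRF9 and IFI35) the median was -0.06, 2 of them above 0. The letters are a description of these windows and not a measurement of factor binding.

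None of the 27 measured genes passed either test for a difference between CT16 siRNA and control siRNA. In RNA from whole cultures, a change in a few cells and a smaller change in every cell cannot be told apart. By limma (Benjamini-Hochberg adjustment over 12082 probes), 0 members passed an adjusted p of 0.05, as did 0% of all probes, and the smallest adjusted p of a member was 0.481. At an unadjusted p under 0.05, 2 members passed (IFIT2 with the higher mean after CT16 siRNA and MX1 with the lower), against 9.57% of all probes. The rank product, which ranks each probe in the 9 ratios of a CT16 siRNA array to a control siRNA array, called 0 members at a false discovery rate (FDR) under 0.05 and 0 under 0.1. It called 0.463% and 0.856% of 47289 probes at these thresholds, and the smallest FDR of a member was 0.182, for ISG20. The groups did not overlap for 4 of the 27 members, DDX58 and IFIT2 being higher on every CT16 siRNA array and MX1 and MX2 lower, while the groups of 16.3% of all probes did not overlap.

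The members' mean differences lay on both sides of 0. On the log2 scale of the quantile-normalized signal, 13 were higher and 14 lower with CT16 siRNA, with a median of -0.01 and a range from -0.43 (MX1) to 0.33 (IFIT2), and the median of all probes was 0.0003. With a median shift of the arrays in place of quantile normalization, 20 members were higher and 7 lower, and 74.1% of members and 74.1% of all probes were then above 0. That scaling moved the median of all probes to 0.10 and that of the members to 0.13, so every direction given here is relative to the other probes. The 95% intervals of limma held 0 for 25 of the 27 members, and for all 27 they lay within a doubling either way on this scale, in which the signals still include background. With background subtracted (neqc) the difference of IFIT2 was itself over a doubling, at 1.06, and that of IFIT1 was 0.86. In the quantile-normalized fit without that subtraction, the highest upper bound was 0.65, for HERC5, and the lowest lower bound was -0.87, for ISG20.

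**Figure D1:**
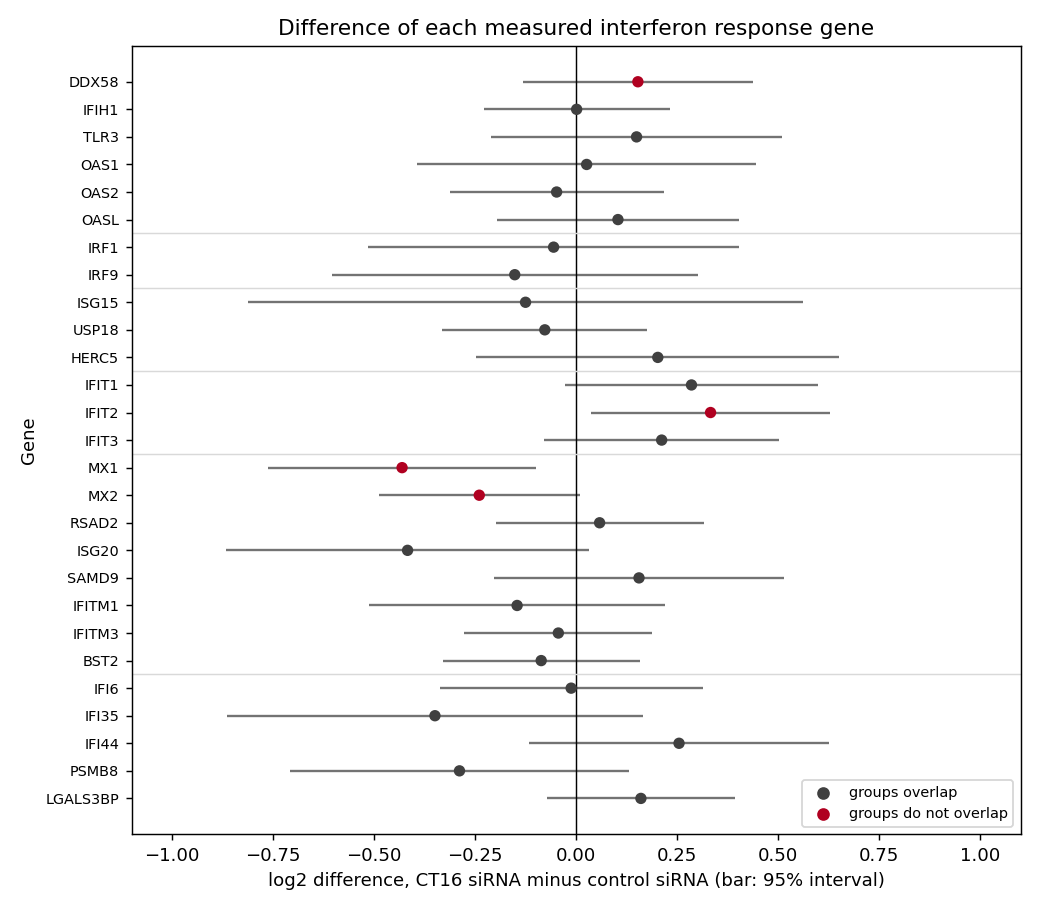
Log2 difference (CT16 siRNA minus control siRNA, x axis) of each of the 27 measured interferon response genes (y axis, ordered by role), with limma's 95% interval as a bar, n = 3 arrays per group. Red points are the 4 genes whose groups did not overlap, and the points spread from -0.43 for MX1 to 0.33 for IFIT2.

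Neither secreted ligand was detected on enough arrays to be measured at 48 h, the only time sampled. Earlier expression of the ligands was not tested. IFNB1 encodes interferon beta, which starts the response in most cells. Its signal before normalization was 185.3, 176.4 and 155.7 in control siRNA replicates 1, 2 and 3 and 150.4, 152.5 and 185.8 in CT16 siRNA replicates 1, 2 and 3, and its lowest detection p was 0.0778. CXCL10, a chemokine strongly induced by interferons, was at 188.7, 183.6 and 157.4 with control siRNA, against 182.1, 198 and 186.2 with CT16 siRNA. It was detected on 1 array, CT16 siRNA replicate 2, at a detection p of 0.0059. No fold change is given, since IFNB1 was below background on all 6 arrays and CXCL10 on 5 of them.

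**Figure D2:**
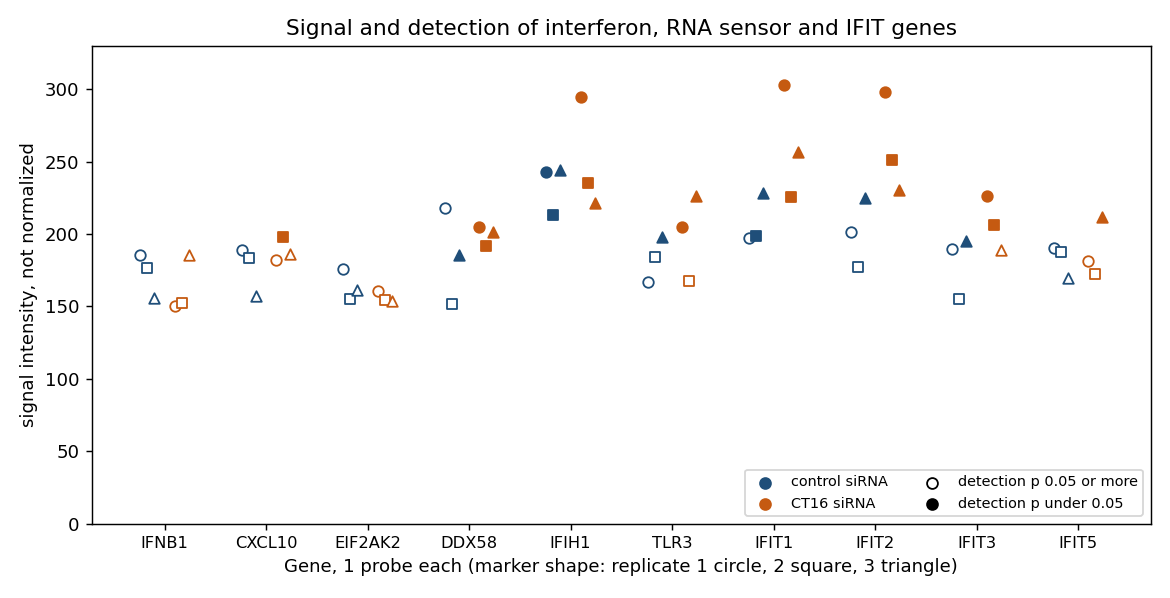
Signal intensity before normalization (y axis, starting at 0) of the interferon, RNA sensor and IFIT probes (x axis) on each array, with control siRNA in blue and CT16 siRNA in orange. Filled markers are arrays with a detection p under 0.05, and IFNB1 and EIF2AK2 have none while IFIH1 is filled on all 6 arrays.

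The RNA sensors and RNA-activated enzymes were largely dim, and 6 of 8 were measured. DDX58 encodes RIG-I, which binds short double-stranded RNA with a 5′ triphosphate. Its log2 signal was 7.62, 7.26 and 7.60 in control siRNA replicates 1, 2 and 3 and 7.63, 7.64 and 7.67 in the CT16 siRNA replicates. The CT16 siRNA arrays were thus all above the control arrays, but control siRNA replicates 1 and 3 lay within 0.1 of them, and the difference was 0.15 (standard error 0.12, adjusted p = 0.651 by limma). It was 0.03 without control siRNA replicate 2 and 0.43 with neqc. Before normalization the groups overlapped, control siRNA replicate 1 having the highest DDX58 signal of the 6 arrays, 217.7. That array missed the detection cut narrowly, at a detection p of 0.0501. The DDX58 probe was detected on 1 of 3 control arrays and on 3 of 3 CT16 siRNA arrays, so it passed the filter on low signal through the CT16 siRNA group. The same held for IFIT1, IFIT2 and RSAD2, which were each detected on all 3 CT16 siRNA arrays and on 1 or 2 control arrays. IFIT3 and TLR3 were each detected on 2 CT16 siRNA arrays and 1 control array.

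IFIH1, which encodes MDA5, the sensor of long double-stranded RNA, had log2 signals of 7.87, 7.86 and 7.97 with control siRNA, against 8.01, 7.87 and 7.82 with CT16 siRNA. The groups overlapped completely, with a difference of 0.0012 (standard error 0.10) and an interval from -0.23 to 0.23. TLR3 stood at 7.25, 7.56 and 7.70 with control siRNA, against 7.63, 7.46 and 7.86 with CT16 siRNA, a difference of 0.15 (standard error 0.15, adjusted p = 0.730 by limma). It was 0.02 without control siRNA replicate 1 and 0.40 with neqc, and the TLR3 probe was detected on 1 control array and 2 CT16 siRNA arrays. EIF2AK2, which encodes the kinase PKR that stops translation when it binds double-stranded RNA, was detected on 0 of 6 arrays, with signals from 154 to 175.7 and detection p-values from 0.407 to 0.802.

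The oligoadenylate synthetases make the second messenger that activates RNase L. OAS1 was at 7.69, 8.33 and 7.96 with control siRNA, against 7.80, 8.13 and 8.13 with CT16 siRNA, and its highest and lowest arrays were both control arrays. The difference was 0.03 (standard error 0.18). OAS2 had the lowest difference of the sensors, with 7.77, 7.53 and 7.47 against 7.59, 7.45 and 7.59, a difference of -0.05 (standard error 0.11). OASL, a related protein that enhances RIG-I signalling, differed by 0.10 (standard error 0.13) and OAS3 was detected on 2 arrays, control siRNA replicates 1 and 3. Of 3 OAS1 probes, 2 were measured, and the other one had a difference of -0.11, opposite in sign to the probe used.

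Of the transcription factors, IRF1 and IRF9 were measured. IRF9 is the DNA-binding partner of STAT2. Its log2 signal was 9.13, 9.29 and 9.03 in control siRNA replicates 1, 2 and 3 and 8.61, 8.98 and 9.40 in the CT16 siRNA replicates. The CT16 siRNA group held both the lowest and the highest array, with a difference of -0.15 (standard error 0.19, adjusted p = 0.784 by limma). IRF1, which is induced by interferons and drives antigen presentation genes, had the same lowest and highest arrays, CT16 siRNA replicates 1 and 3. It was at 9.01, 9.26 and 9.02 against 8.62, 9.11 and 9.40, a difference of -0.06 (standard error 0.20). Both were higher on average with CT16 siRNA when its replicate 1 was left out, by 0.16 for IRF1 and 0.04 for IRF9.

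ISG15 is a ubiquitin-like protein that is attached to other proteins during the response. Its log2 signal was 9.76, 10.34 and 9.98 with control siRNA and 9.28, 9.95 and 10.48 with CT16 siRNA. The spread within the CT16 siRNA group (SD 0.60, n = 3) was larger than the difference of -0.13 (standard error 0.29, adjusted p = 0.890 by limma). HERC5, the ligase that attaches ISG15, ran the other way, with 9.41, 9.29 and 9.45 against 10.01, 9.53 and 9.21. It was highest on CT16 siRNA replicate 1 and lowest on CT16 siRNA replicate 3, and its difference was 0.20 (standard error 0.19, adjusted p = 0.703). Without CT16 siRNA replicate 1 the difference of HERC5 was -0.01 and that of ISG15 was 0.19. USP18, the protease that removes ISG15, differed by -0.08 (standard error 0.11) and was detected on 2 arrays of each group.

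The IFIT proteins bind foreign RNA and block its translation, and their genes lie close together on chromosome 10. All 3 measured genes of this family had a higher mean with CT16 siRNA, and none passed a test. IFIT2 and IFIT3, each detected on 1 control array, passed the detection filter mainly through the CT16 siRNA arrays. Such a filter favours genes with a higher mean in that group, so nothing is drawn from the shared direction. IFIT2 was at 7.50, 7.50 and 7.87 with control siRNA, against 8.03, 7.95 and 7.89 with CT16 siRNA. The groups did not overlap, although control siRNA replicate 3 lay just below CT16 siRNA replicate 3, and the difference was 0.33 (standard error 0.13, adjusted p = 0.495 by limma, rank product FDR 0.343). IFIT1 stood at 7.48, 7.71 and 7.89 against 8.05, 7.82 and 8.05, so that control siRNA replicate 3 lay above CT16 siRNA replicate 2. Its difference was 0.29 (standard error 0.13, adjusted p = 0.533, rank product FDR 0.442). IFIT3 was at 7.42, 7.29 and 7.68 against 7.73, 7.72 and 7.57, with a difference of 0.21 (standard error 0.12, adjusted p = 0.573).

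The IFIT signals were near the limit of detection. Before normalization IFIT2 was at 201.2, 177.3 and 224.9 with control siRNA, detected on replicate 3 alone, and at 298.2, 251.5 and 230.4 with CT16 siRNA, detected on all 3. IFIT1 was detected on 2 control and 3 CT16 siRNA arrays and IFIT3 on 1 and 2. IFIT5 was detected on 1 array, CT16 siRNA replicate 3, at a signal of 212. Since these signals include background, the differences depend on its removal: with neqc, which subtracts it, they were 1.06 for IFIT2, 0.86 for IFIT1 and 0.63 for IFIT3, still with no call. With any 1 array left out, the difference stayed between 0.27 and 0.45 for IFIT2, between 0.18 and 0.38 for IFIT1 and between 0.13 and 0.32 for IFIT3. Control siRNA replicate 1, which had the fewest detected probes and the highest median signal, was the lowest array for IFIT1. Without it the differences were 0.18 for IFIT1, 0.27 for IFIT2 and 0.19 for IFIT3.

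**Figure D3:**
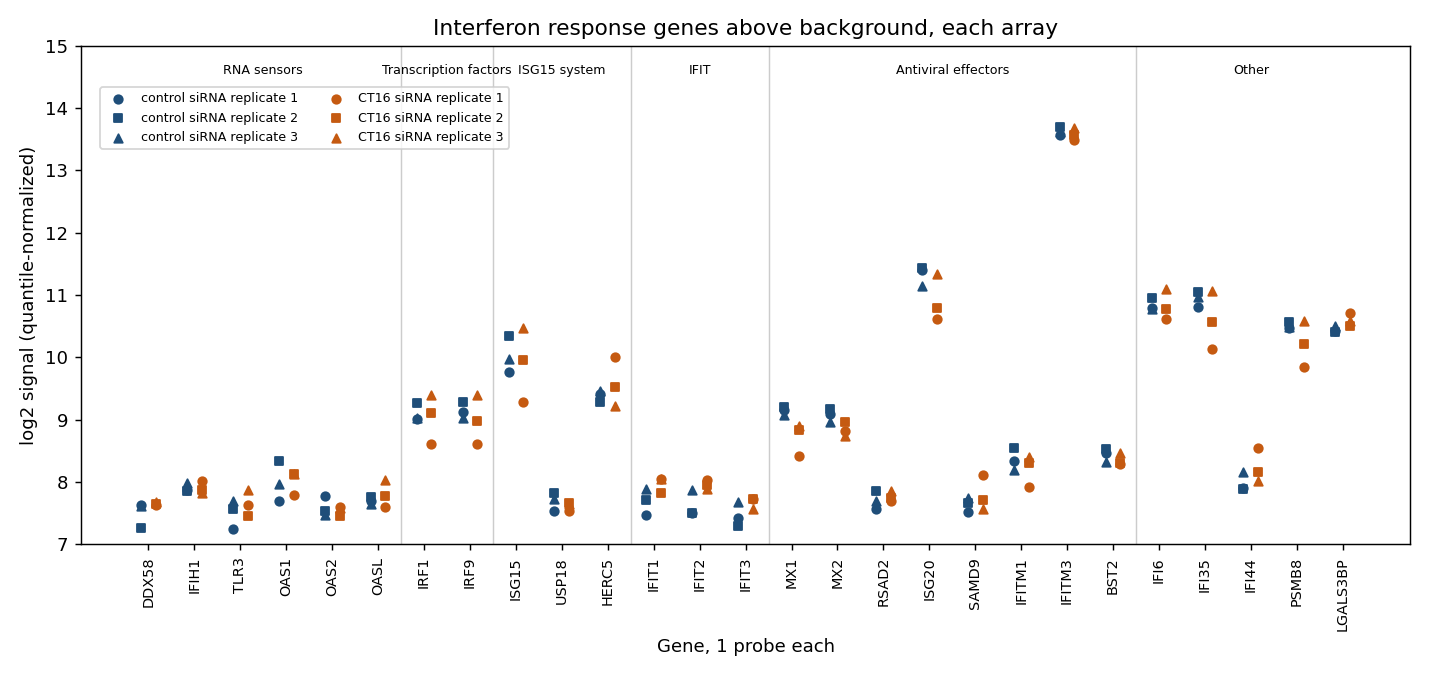
Quantile-normalized log2 signal (y axis) of the 27 measured interferon response genes (x axis, grouped by role) on each of the 6 arrays, with control siRNA in blue and CT16 siRNA in orange and the replicate given by marker shape. The 2 colours overlap for every gene except DDX58, IFIT2, MX1 and MX2.

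Among the antiviral effectors, 8 of 10 were measured, 2 with a higher and 6 with a lower mean after CT16 siRNA (5 and 3 with a median shift). MX1 encodes a dynamin-like GTPase that traps incoming viral particles. Its log2 signal was 9.16, 9.20 and 9.07 in control siRNA replicates 1, 2 and 3 and 8.41, 8.84 and 8.89 in the CT16 siRNA replicates. Every CT16 siRNA array was below every control array, and CT16 siRNA replicate 1 was the farthest. The difference was -0.43 (standard error 0.14, adjusted p = 0.481 by limma, rank product FDR 0.186), and without CT16 siRNA replicate 1 it was -0.28. MX2, its neighbour and relative, was at 9.08, 9.17 and 8.97 against 8.81, 8.96 and 8.73. The groups were apart by under 0.02 at their nearest arrays, and the difference was -0.24 (standard error 0.11, adjusted p = 0.523 by limma). Before normalization the MX2 groups overlapped, CT16 siRNA replicate 2 having the highest MX2 signal of the arrays, 533.1. With a median shift in place of quantile normalization the difference was -0.05 for MX2 and -0.22 for MX1.

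ISG20 encodes an exonuclease that degrades single-stranded RNA. It stood at 11.41, 11.43 and 11.15 with control siRNA, against 10.61, 10.79 and 11.34 with CT16 siRNA. CT16 siRNA replicates 1 and 2 were below all controls, whereas replicate 3 lay above control siRNA replicate 3, so the groups overlapped. The difference was -0.42 (standard error 0.19, adjusted p = 0.531 by limma, rank product FDR 0.182). Without CT16 siRNA replicate 3 the difference of ISG20 was -0.63 and the rank product called 2 members at an FDR under 0.05, ISG20 and IFI35, both lower. Over all 47289 probes it then called 563, against 219 with all arrays. Without CT16 siRNA replicate 1 the difference of ISG20 was -0.27.

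Most of the other effectors differed by less than their standard error or little more. SAMD9, an antiviral factor that restricts poxviruses, had the highest difference of the effectors, with 7.52, 7.66 and 7.74 against 8.11, 7.71 and 7.56. CT16 siRNA replicate 1 was the single high array, and the difference was 0.16 (standard error 0.15) with all arrays and -0.0024 without that array. RSAD2, which encodes viperin, differed by 0.06 (standard error 0.11) and was detected on 2 control and 3 CT16 siRNA arrays. The membrane proteins that block viral entry or release were detected on all 6 arrays and differed by -0.15 for IFITM1 (standard error 0.16), -0.04 for IFITM3 (standard error 0.10) and -0.09 for BST2 (standard error 0.10). The IFITM3 signal ran from 9334 to 16600 before normalization. On the log2 scale after normalization it lay between 13.49 and 13.70, and the interval of its difference was from -0.28 to 0.19. TRIM22 was detected on 0 arrays, with signals from 141.1 to 187.6.

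Of the 8 other induced genes, 5 were measured. IFI35, which encodes a partner of NMI, had the lowest difference of this group, with 10.81, 11.05 and 10.97 against 10.13, 10.57 and 11.07. The CT16 siRNA group held both the lowest and the highest array (SD 0.47, against 0.12 with control siRNA), and the difference was -0.35 (standard error 0.22, adjusted p = 0.586 by limma, rank product FDR 0.363). Without CT16 siRNA replicate 1 it was -0.12, whereas leaving out replicate 3 gave -0.59 (adjusted p = 0.0567 by limma). IFI44 had the highest, with 7.90, 7.88 and 8.16 against 8.54, 8.15 and 8.01, a difference of 0.25 (standard error 0.16, adjusted p = 0.582). CT16 siRNA replicate 1 was its highest array, and the difference without it was 0.10.

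PSMB8, a subunit of the immunoproteasome, was at 10.46, 10.57 and 10.48 against 9.85, 10.21 and 10.59, a difference of -0.29 (standard error 0.18). Leaving out CT16 siRNA replicate 1 gave -0.10, and leaving out its replicate 3 gave -0.48. Its 3 probes were all detected on 6 arrays and disagreed, with differences of -0.29, -0.05 and 0.14. IFI6, a mitochondrial antiviral protein, differed by -0.01 (standard error 0.14) and LGALS3BP, a secreted glycoprotein, by 0.16 (standard error 0.10). IFI27, IFI44L and XAF1 were detected on 0 arrays each, with detection p-values from 0.223 to 0.907.

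The 6 arrays did not hold the members' extremes evenly. CT16 siRNA replicate 1 was the lowest array for 13 of the 27 members (48.1%, against 34.1% of all probes) and the highest for 7 (25.9%, against 29.2%). CT16 siRNA replicate 3 was the highest for 11 (40.7%, against 21.7%). OASL, IRF1, IRF9, ISG15, IFI6, IFI35 and PSMB8 were lowest on CT16 siRNA replicate 1 and highest on CT16 siRNA replicate 3, which is 25.9% of members against 12.9% of all probes. IFIH1 and HERC5 ran the opposite way. The SD was larger with CT16 siRNA for 17 of the 27 members (63.0%), against 68.6% of all probes. These shares are a description of the 6 arrays, and the members are not independent of one another.

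**Figure D4:**
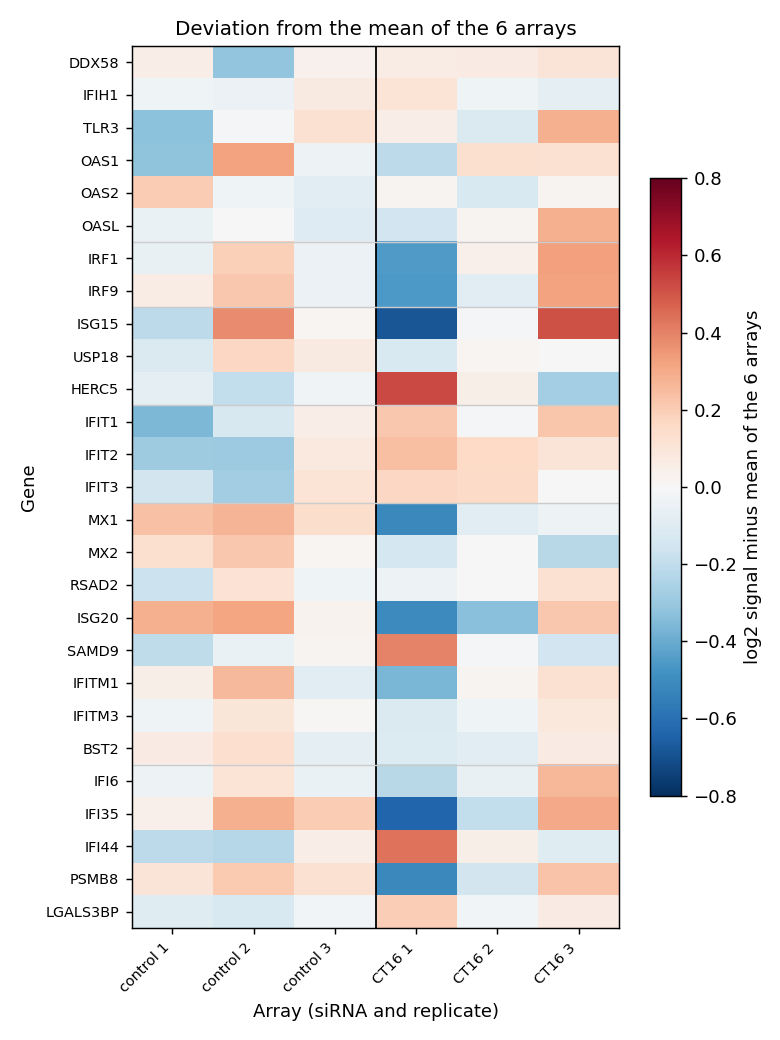
Deviation of each measured gene (rows, ordered by role) from its mean over the 6 arrays (columns), in log2 units from blue (below) to red (above). The columns of CT16 siRNA replicates 1 and 3 carry the deepest colours, in opposite directions for IRF1, IRF9, ISG15, IFI35 and PSMB8, while the IFIT rows are blue on control siRNA replicates 1 and 2.

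The number of members detected differed between arrays as well. Of the 36 genes with a probe, 20, 22 and 27 were detected in control siRNA replicates 1, 2 and 3, and 26 in each CT16 siRNA replicate. The 2 arrays with the fewest were also those with the fewest detected probes overall (23.9% and 25.4% of all probes, against 26.6% to 27.7% on the other 4). The array with the most detected members was a control array.

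The genes on either side of the members in the pathway were looked at in the same fit. Of 11 genes of the receptor and its signal chain, 6 were measured and 0 passed either test, the smallest unadjusted p being that of IFNGR1, a chain of the interferon gamma receptor (difference 0.21, standard error 0.17, adjusted p = 0.651 by limma). IFNAR1 and IFNAR2, the 2 chains of the type I receptor, were not well above background on any array, nor were JAK2 and SOCS3. Each was read from 1 probe, so this does not show that the gene is off. Of 15 adaptors and kinases behind the sensors, 13 were measured, 3 with a higher and 10 with a lower mean, and 0 passed either test. With a median shift 12 were higher and 1 lower. TBK1, the kinase that activates IRF3, had the smallest p of them, with log2 signals of 8.35, 7.84 and 8.47 against 9.52, 8.49 and 8.40. CT16 siRNA replicate 1 was the single high array of TBK1, and the difference was 0.58 with it (standard error 0.31, adjusted p = 0.556 by limma) and 0.23 without it.

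Of 25 further interferon-induced genes, 18 were measured, 12 with a higher and 6 with a lower mean and a median difference of 0.02. With a median shift 17 were higher and 1 lower. By limma 0 passed, and by the rank product 2 passed an FDR of 0.1 and 0 an FDR of 0.05. Over all 47289 probes the rank product called 0.856% and 0.463% at these thresholds. SP100, a component of nuclear bodies, was at 11.81, 11.47 and 12.05 with control siRNA, against 13.07, 12.47 and 11.74 with CT16 siRNA (rank product FDR 0.0531). B2M, the light chain of MHC class I, was at 11.69, 11.66 and 11.84 against 12.87, 12.15 and 11.95 (rank product FDR 0.0936, adjusted p = 0.492 by limma). For both, CT16 siRNA replicate 1 was the highest array, and the differences of 0.65 for SP100 and 0.59 for B2M were 0.33 and 0.32 without it. Without CT16 siRNA replicate 3 that of SP100 was 0.99. The groups did not overlap for 4 of the 18 (22.2%, against 16.3% of all probes). B2M and NMI, the partner of IFI35, were higher on every CT16 siRNA array and SP110 and RTP4 lower, and the differences were 0.23 for NMI, -0.13 for SP110 and -0.17 for RTP4.

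Of 10 genes of the RNA interference and microRNA machinery, 9 were measured and 0 passed either test. DICER1, TARBP2 and PRKRA also stand in the list of adaptors and kinases. DROSHA, the nuclease that cuts primary microRNAs, had the smallest unadjusted p, with a difference of 0.30 (standard error 0.13, adjusted p = 0.515 by limma). Its log2 signal was 9.28, 9.24 and 9.38 with control siRNA and 9.68, 9.75 and 9.36 with CT16 siRNA, and the groups overlapped.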

How the data were processed

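Total RNA of 6 A2058 cultures was measured on 1-colour Illumina arrays, grouped by the sample labels. The authors deposited bead-averaged signal intensity per probe, not normalized between arrays, with a detection p-value per probe. The authors also deposited intensity values after quantile normalization in Bioconductor, used here as an alternative (Spearman correlation with the signals of the same array 0.993 to 0.994). The sources used here name neither the bead summary software nor any background subtraction.

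Of 47296 probes, 7 were empty, and 18468 had a gene symbol in the platform annotation. Signals before normalization were put on a log2 scale and quantile-normalized here. The limma fit (limma 3.58.1, R 4.3.3; lmFit, eBayes, Benjamini-Hochberg) took the 12082 probes with a detection p under 0.05 on at least 3 arrays. The rank product, the study's method, was rewritten in Python 3.11.15 with 100 permutations within arrays and a fixed seed, over 47289 probes. Both were run on simulated data with noise independent between probes. Noise shared between probes was not simulated, so nothing is drawn from these runs about the calls here. Figures were drawn with matplotlib 3.10.9. The number of arrays limits the precision.

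The members, role groups and further lists were chosen with earlier results of these data known. DDX58 is the platform's symbol of RIGI, and ISGF3G was left out of the further lists as an older symbol of IRF9. Values per array were given for members past an FDR of 0.1 by either test, the 5 with the smallest p, the main sensors, ligands, factors and IFIT genes, the highest and lowest of each role group, and, in the further lists, genes past either test or with the smallest p. PSMB8, NMI, SP110, RTP4 and the genes given by their difference alone were chosen after their values were seen. Alternatives were other background corrections, scalings, filters, variance models, probe rules and each array left out. Some genes of the further lists are not reported here.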

Additional observations from a re-analysis of the deposited data

How the results depend on the processing

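Limma called 0 members under every alternative run, and the smallest adjusted p of a member over 299 alternative values was 0.0501 (ISG20 without CT16 siRNA replicate 3). Over all probes tested, limma called 195 of 12082 without CT16 siRNA replicate 3, 11 of 12082 without its replicate 1 and 0 under the others. The rank product called 0 members under every alternative but 1: over the fits with 1 array left out the count ranged from 0 to 2, the 2 being ISG20 and IFI35 without CT16 siRNA replicate 3, where 563 probes in all were called against 219 with all arrays. The members' median was 0.129 with a median shift and between -0.0713 and 0.0408 with 1 array left out, and the cause of the shift was not tested beyond the move of all probes to 0.104. A median shift also turned IRF1 to 0.15, IRF9 to 0.063, ISG15 to 0.0726, IFITM1 to 0.0354, IFITM3 to 0.0644, BST2 to 0.11 and IFI6 to 0.14. With neqc IFIH1 was at -0.0024, and the mean of the detected probes put OAS1 at -0.0433.

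For 12 of the 27 members the sign changed with 1 array left out. The differences then ranged from -0.054 to 0.0401 for IFIH1, -0.13 to 0.19 for OAS1, -0.11 to 0.04 for OAS2, -0.0129 to 0.21 for OASL, -0.23 to 0.16 for IRF1, -0.35 to 0.04 for IRF9, -0.41 to 0.19 for ISG15, -0.0102 to 0.39 for HERC5, -0.0119 to 0.13 for RSAD2, -0.0024 to 0.27 for SAMD9, -0.10 to 0.0035 for IFITM3 and -0.15 to 0.094 for IFI6. The same-numbered arrays of the groups deviated from their means with correlations of 0.42, 0.02 and -0.41. Deviations from a group mean cancel out within each small group, so these correlations depend on each other. They cannot decide whether the numbers pair the cultures, and no conclusion is drawn from them. The fit with the replicate block gave 0 calls by limma, 0 members by the rank product and a median of -0.0124. The slide as a block was planned and not run, since the columns name no slide.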
